A study of Mus musculus with 9 samples.

Results

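Iron handling was examined through 10 genes named by their role, which cover ferritin storage (Fth1, Ftl1), ferritin turnover (Ncoa4), iron uptake and transport (Tfrc, Steap4, Slc11a1, Slc11a2), mitochondrial iron and haem synthesis (Slc25a37, Fech) and haem breakdown (Hmox1). Members were taken by gene symbol from a table of 7197 genes, and 9 of the 10 were listed there. Slc11a2, a transporter of divalent metals, was not among the listed genes and is not analysed here. All 9 listed members passed the filter on low values, a mean of at least 10 normalized counts over the libraries.

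The libraries were made from neutrophils (CD45+, CD11b+, Ly6G+) sorted from the bone marrow of C57BL/6 mice aged 2 months. Of the 9 libraries, 5 came from Rragc+/+ animals, labelled RagC S74N (+/+), and 4 from RragcS74N/+ animals, labelled RagC S74N (KI/+), which carry 1 endogenous allele edited by CRISPR to encode an active form of RagC in every cell of the body. RagC belongs to the Rag GTPases, through which nutrients activate mTORC1, a kinase complex that drives growth, and the comparison asks whether this signal changes the transcripts of sorted neutrophils. The labels give no library preparation date, batch or replicate number and do not tie each library to 1 animal, and the study's text describes more RragcS74N/+ mice than there are libraries analysed here. Hence replicates are numbered in deposit order, and p-values measure the spread between these libraries.

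Iron enters most cells bound to transferrin through the transferrin receptor, is reduced, crosses the endosomal membrane and is then stored in ferritin or passed to mitochondria for haem and iron-sulphur clusters. Ferritin messenger RNA is translated when iron is plentiful and transferrin receptor messenger RNA is stable when iron is scarce, both through iron regulatory proteins that bind hairpins called iron-responsive elements. Developing red cells take up iron at a far greater rate than other marrow cells, whereas macrophages recycle haem from old red cells, and neutrophils carry iron-binding granule proteins and withhold iron from microbes. In a sorted neutrophil library, an iron gene can therefore be read from the neutrophils or from RNA of red cell precursors or macrophages that came through the sort.

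The hairpins are shown because they divide the members by regulation and because they link ferritin, the transferrin receptor and the red cell enzyme Alas2 used as a marker below. Each is printed 5′ to 3′ with 5 flanking bases on both sides and with the 6-base loop in capitals, as found in GENCODE transcripts of assembly GRCm38 by a search for CNNNNNCAGTGN (last base not G) followed by 5 bases that pair with the NNNNN (G with U allowed), on the transcript strand only. Coordinates run from the bulged C to the last stem base.
Fth1, in the 5′ UTR at chr19:9982738-9982754, plus strand: uccugcuucaaCAGUGCuugaacggaa
Ftl1, in the 5′ UTR at chr7:45459785-45459801, minus strand: ucuugcuucaaCAGUGUuugaacggaa
Tfrc, in the 3′ UTR at chr16:32631225-32631241, plus strand: auuaucggaagCAGUGCcuuccauaau
Tfrc, in the 3′ UTR at chr16:32631604-32631620, plus strand: auuaucgggagCAGUGUcuuccauaau
Tfrc, in the 3′ UTR at chr16:32631669-32631685, plus strand: uauaucggagaCAGUGAucuccauaug
Tfrc, in the 3′ UTR at chr16:32631716-32631732, plus strand: auuaucgggaaCAGUGUuucccauaau
Alas2, in the 5′ UTR at chrX:150547464-150547480, plus strand: ugguucguccuCAGUGCagggcaacag

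The 2 ferritin hairpins differed at 2 of 27 positions. A match lay in the 5′ UTR of 0.105% of 21901 protein-coding genes (23 genes) and in the 3′ UTR of 0.457% (100 genes). No match was found in the annotated 5′ or 3′ UTRs of Ncoa4, Slc11a1, Slc25a37, Hmox1, Fech or Steap4. UTRs of coding transcripts were the only parts searched, so this says only that no such site with a fully paired stem lies there. A 3′-end count measures messenger RNA alone, so translation of ferritin through these hairpins is outside the measurement.

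Reads over the listed genes numbered from 1214295 to 1973957 per library, and counting error covers reads, not molecules. The 11 mature neutrophil markers, including Ly6g, S100a8 and S100a9, were all listed and took 9.75 to 13.8% of the reads. Globin transcripts (Hba-a1, Hba-a2, Hbb-bs, Hbb-bt), which define red cell precursors, took 0.0259 to 0.394% of the reads. Their summed level spanned a 14.8-fold range, from 369 in RragcS74N/+ replicate 2 to 5466 normalized counts in Rragc+/+ replicate 5. Of the other cell types, 9 of 13 macrophage markers were listed with a summed level of 215 to 511 normalized counts in Rragc+/+ and 197 to 270 in RragcS74N/+, and 0 of 6 platelet markers were. Rragc+/+ replicate 2 stood apart, with a Spearman correlation that averaged 0.891 against the 8 others, where theirs averaged 0.929 to 0.951, and results that it weighs on are given with and without it.

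Iron gene levels ranged from among the most abundant to the scarcer genes of the table. Values are normalized counts, that is, reads at the transcript 3′ end divided by 1 size factor per library, and they were not divided by transcript length because such libraries give about 1 read per transcript end. Mean levels over the 9 libraries were 1430 ± 276 for Fth1 (SD, n = 9), 656 ± 243 for Ftl1, 327 ± 113 for Ncoa4, 158 ± 30.9 for Slc25a37, 132 ± 88.4 for Hmox1, 66.9 ± 15.3 for Slc11a1, 28.0 ± 20 for Steap4, 25.3 ± 14.6 for Tfrc and 17.4 ± 6.96 for Fech. Fth1, the ferritin heavy chain, ranked 118 of 7197 genes and Fech ranked 5637. Fth1 was the one member whose lowest library (1232) exceeded the highest library of the next gene (Ftl1, 1108), and each other pair of neighbours in this order overlapped.

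**Figure D1:**
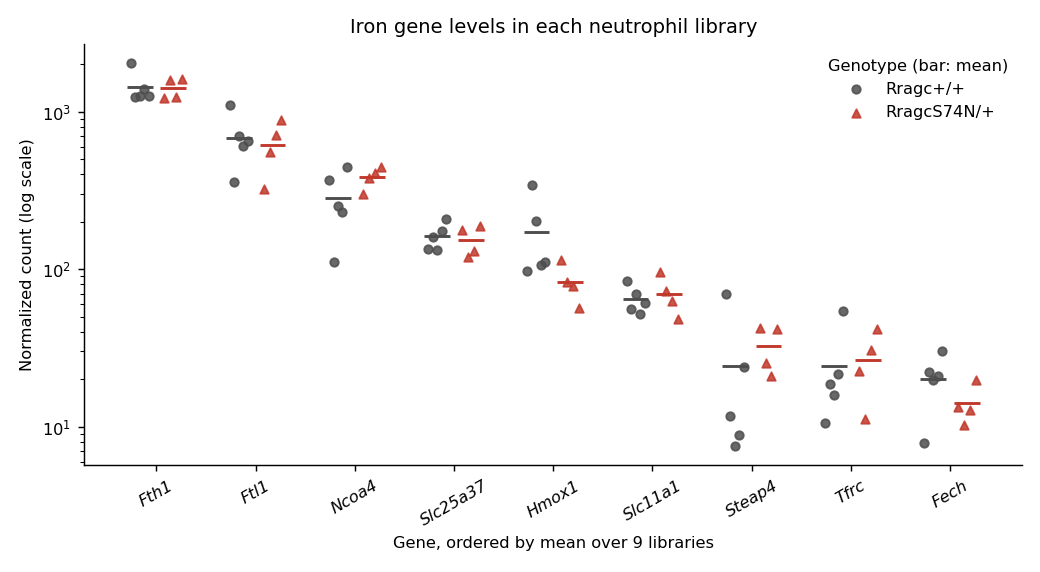
Normalized counts of the 9 listed iron genes (log scale) in each of 5 Rragc+/+ libraries (grey circles) and 4 RragcS74N/+ libraries (red triangles), with a bar at each group mean. Ferritin transcripts lie at 322 normalized counts or more in every library, Steap4, Tfrc and Fech lie below 70, and the 2 genotypes overlap for every gene.

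No iron gene differed between the genotypes after correction. In limma, 0 of the 9 members passed a Benjamini-Hochberg adjusted threshold of 0.05, where the background was 0% of 6673 genes tested, and edgeR and DESeq2 called 0 members as well. At an unadjusted p-value under 0.05, limma, edgeR and DESeq2 each gave 1 of 9 members (Hmox1, lower in RragcS74N/+) against a limma background of 5.81% of all genes. This count ran from 0, without RragcS74N/+ replicate 4, to 3, without Rragc+/+ replicate 1 (Hmox1, Fech and Steap4) or with array quality weights (Hmox1, Ncoa4 and Steap4). It was 2 without Rragc+/+ replicate 5 (Hmox1 and Ncoa4) or with the haemoglobin level as a covariate (Hmox1 and Tfrc). The number of all genes under that p moved as well. It was 388 in the main fit, 224 without RragcS74N/+ replicate 4 and 641 without Rragc+/+ replicate 1. With array weights it was 769, without Rragc+/+ replicate 5 it was 907 and with the covariate 314. The libraries of the genotypes did not overlap for 0 of 9 members, against 1.69% of all genes. The median difference on the log2(value + 1) scale, RragcS74N/+ minus Rragc+/+, was 0.0041 over the members and 0.02 over all genes tested, with 5 members higher and 4 lower. On simulated libraries of this size, 73 of 100 genes changed by a log2 value of 1 were called and all 100 changed by a log2 value of 2. In the same run 10 unchanged genes were called. The simulated spread was the typical one for a gene's level, whereas Hmox1, Steap4 and Tfrc varied more than most genes of like level. Changes were planted only above a minimum mean that Fech did not reach. They were planted in many genes at once, which eases the adjusted threshold, so these shares can overstate what was detectable in the members. Smaller changes were not simulated.

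Ferritin messenger RNA was abundant in every neutrophil library and did not differ detectably with genotype. Fth1 measured 2038, 1233, 1269, 1387 and 1251 normalized counts in Rragc+/+ replicates 1 to 5 and 1232, 1596, 1243 and 1625 in RragcS74N/+ replicates 1 to 4. Rragc+/+ replicate 1 was the highest of all, and the other 8 libraries lay between 1232 and 1625 with the genotypes interleaved. The group means were 1435 ± 342 (SD, n = 5) and 1424 ± 216 (SD, n = 4), a log2 difference of 0.0041 with a standard error of 0.19 and a 95% interval from -0.39 to 0.40 (limma, adjusted p = 0.997).

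Ftl1, the ferritin light chain, varied more than Fth1. It measured 1108, 358, 700.1, 605 and 656 normalized counts in Rragc+/+ replicates 1 to 5 and 322, 553, 717 and 881 in RragcS74N/+ replicates 1 to 4. The lowest values lay in Rragc+/+ replicate 2 and RragcS74N/+ replicate 1, 1 in each genotype, and the groups overlapped. Their means were 685 ± 271 (SD, n = 5) and 618 ± 238.5 (SD, n = 4), a log2 difference of -0.15 with a 95% interval from -0.83 to 0.53 (limma, adjusted p = 0.886), and this difference turned to 0.18 once the dependence of each library on 3′-end GC content was removed. The last 500 nucleotides of Ftl1 hold 57.8% G and C, the highest share among the members, whose other values ran from 36.0 to 48.2%.

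The balance of heavy to light chain transcripts was not constant. The ratio of Fth1 to Ftl1 lay between 1.73 and 1.91 in 5 libraries (Rragc+/+ replicates 1, 3 and 5 and RragcS74N/+ replicates 3 and 4). It was 2.29 in Rragc+/+ replicate 4, 2.89 in RragcS74N/+ replicate 2, 3.45 in Rragc+/+ replicate 2 and 3.82 in RragcS74N/+ replicate 1. In Rragc+/+ it averaged 2.26 ± 0.692 (SD, n = 5), and in RragcS74N/+ 2.57 ± 0.982 (SD, n = 4), so the spread within each genotype exceeded the gap between them. Together the 2 chains took 0.159 ± 0.0493% of the reads in Rragc+/+ and 0.15 ± 0.0167% in RragcS74N/+. Ferritin genes have processed copies in the genome, of which Ftl1-ps1 was listed at 2.00 to 14.0 normalized counts, and the aligner accepted reads with several positions, so the split between Fth1 or Ftl1 and their copies is uncertain.

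Ncoa4, the cargo receptor that delivers ferritin to lysosomes for iron release, was the third most abundant member. It measured 369.5, 111, 253, 231 and 446 normalized counts in Rragc+/+ replicates 1 to 5 and 298, 378, 410.5 and 443 in RragcS74N/+ replicates 1 to 4. The RragcS74N/+ libraries lay in the upper range of Rragc+/+ and the lowest value by far was that of Rragc+/+ replicate 2. The means were 282 ± 130 (SD, n = 5) and 382.5 ± 62.05 (SD, n = 4), and the log2 difference of 0.57 (95% interval -0.12 to 1.26) had an unadjusted limma p of 0.0960 and an adjusted p of 0.713. It was 0.27 without Rragc+/+ replicate 2. Ferritin transcripts per Ncoa4 transcript (Fth1 plus Ftl1 over Ncoa4) were 8.52, 14.3, 7.78, 8.63 and 4.27 in Rragc+/+ and 5.21, 5.68, 4.78 and 5.66 in RragcS74N/+, so that Rragc+/+ replicate 5 was lowest and the other 4 Rragc+/+ libraries lay above all RragcS74N/+ libraries. This ratio was formed after the values were seen and was not tested.

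Among the uptake and transport genes, Steap4, a membrane reductase of ferric iron and copper, had the highest coefficient of variation of the members, 71.6%. It measured 69.2, 11.7, 7.50, 8.84 and 24.1 normalized counts in Rragc+/+ replicates 1 to 5 and 42.4, 25.4, 21.1 and 41.8 in RragcS74N/+ replicates 1 to 4. Rragc+/+ held both the highest library and the 3 lowest, with 8 to 11 reads each. The log2 difference of 0.85 (95% interval -0.26 to 1.95) had an unadjusted limma p of 0.122 and an adjusted p of 0.713, and its size depended on the method. It was 1.34 without Rragc+/+ replicate 1 (limma, unadjusted p = 0.00283, adjusted p = 0.5015), but 0.36 in edgeR, 0.41 in DESeq2 and 0.42 with the haemoglobin level as a covariate, where no unadjusted p was under 0.05.

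Slc11a1, a metal transporter of the phagosome membrane of neutrophils and macrophages known from resistance to intracellular microbes, was steadier. It measured 83.6, 56.1, 69.4, 52.25 and 61.2 normalized counts in Rragc+/+ replicates 1 to 5 and 95.5, 73.2, 62.5 and 48.1 in RragcS74N/+ replicates 1 to 4. RragcS74N/+ held both the highest and the lowest library. The log2 difference was 0.09 with a 95% interval from -0.38 to 0.56 (limma, adjusted p = 0.902).

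Tfrc, the transferrin receptor, was low. It measured 10.5, 18.7, 15.9, 21.7 and 54.1 normalized counts in Rragc+/+ replicates 1 to 5 and 22.5, 11.2, 30.9 and 41.8 in RragcS74N/+ replicates 1 to 4, from 11 to 54 reads a library. Both genotypes spanned nearly the same range, and the log2 difference was 0.20 with a 95% interval from -0.72 to 1.13 (limma, adjusted p = 0.888).

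Slc25a37, the mitochondrial iron importer mitoferrin that supplies haem synthesis, was present in every library at a level above that of Fech. It measured 134, 160.1, 132, 174 and 209.5 normalized counts in Rragc+/+ replicates 1 to 5 and 177, 119, 130.3 and 187 in RragcS74N/+ replicates 1 to 4. The highest and lowest libraries differed 1.76-fold, and the genotypes overlapped over nearly the whole range. The log2 difference was -0.08 with a 95% interval from -0.51 to 0.34 (limma, adjusted p = 0.899).

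Fech, the enzyme that inserts iron into protoporphyrin in the last step of haem synthesis, was the scarcest member. It measured 7.90, 22.2, 19.7, 20.9 and 30.1 normalized counts in Rragc+/+ replicates 1 to 5 and 13.3, 10.2, 12.8 and 19.9 in RragcS74N/+ replicates 1 to 4, from 10 to 30 reads a library. Of the Rragc+/+ libraries, 3 lay above all RragcS74N/+ libraries and replicate 1 lay below them all. The means were 20.15 ± 7.96 (SD, n = 5) and 14.0 ± 4.12 (SD, n = 4), a log2 difference of -0.42 with a 95% interval from -1.16 to 0.32 (limma, adjusted p = 0.741).

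Hmox1, the inducible haem oxygenase that frees iron from haem, had the lowest unadjusted p for genotype among the members, with a log2 difference close in size to that of Steap4. It measured 97.5, 341, 203, 106 and 110.3 normalized counts in Rragc+/+ replicates 1 to 5 and 114, 82.35, 78.3 and 56.4 in RragcS74N/+ replicates 1 to 4. Rragc+/+ replicates 2 and 3 were high, and RragcS74N/+ replicate 1 lay above the other 3 Rragc+/+ libraries. The means were 171.7 ± 104 (SD, n = 5) and 82.8 ± 23.8 (SD, n = 4), and the log2 difference of -0.91 (SE 0.34, 95% interval -1.64 to -0.18) had an unadjusted limma p of 0.0186 and an adjusted p of 0.713. Without Rragc+/+ replicate 2 it was -0.61 with an unadjusted p of 0.0316, and without RragcS74N/+ replicate 4 it was -0.74 and the unadjusted p rose to 0.0635.

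Of the listed macrophage markers, Csf1r moved most closely with Hmox1 across the libraries, while the rest of that list was mixed. Csf1r, the receptor for macrophage colony-stimulating factor, measured 103, 339, 189, 168 and 85.2 normalized counts in Rragc+/+ replicates 1 to 5 and 133, 103, 99.4 and 71.1 in RragcS74N/+ replicates 1 to 4, and was highest in the 2 libraries with the most Hmox1. The Pearson r of Hmox1 with Csf1r was 0.921, or 0.899 after centring within genotype (n = 9, chosen after the values were seen), and 0.811 and 0.771 without Rragc+/+ replicate 2 (n = 8). Of the 9 listed macrophage markers 7 had a positive pooled r with Hmox1 and 2 a negative one. The others were 0.743 for C1qa, 0.737 for Cd5l, 0.612 for Adgre1 (25.6 to 52.4 normalized counts), 0.526 for C1qb, 0.441 for Axl, 0.223 for C1qc and -0.445 for both Vcam1 and Mrc1. After centring, C1qb had 0.279 and C1qc -0.255, and without Rragc+/+ replicate 2 the pooled r of C1qa was 0.442 and that of Cd5l 0.307. C1qa reached 29.2 and C1qb 30.4 in Rragc+/+ replicate 2, their highest levels, and neither was at 0 in any library. The summed macrophage list was 215, 511, 346, 295 and 315 normalized counts in Rragc+/+ and 270, 249, 197 and 216 in RragcS74N/+. This sum leans on Csf1r, at 85.2 to 339 in Rragc+/+ and 71.1 to 133 in RragcS74N/+. It is therefore not separate from the Csf1r values and does not show how the scarcer markers varied. Genes on the neutrophil secondary granule list were mixed as well. Their pooled r with Hmox1 was 0.907 for Ltb4r1, 0.835 for Cybb, 0.455 for Mmp25, 0.326 for Lcn2 and 0.186 for Ngp. It was -0.0823 for Ltf, -0.2 for Chil3 and -0.706 for Camp. After centring, Ltb4r1 had 0.891 and Cybb 0.843. The part of macrophage or neutrophil RNA in the Hmox1 difference was not tested. In bulk libraries such as these, fewer cells of a type and less RNA per cell cannot be told apart.

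Ncoa4 ran opposite to Hmox1, with a pooled r of -0.879 and -0.848 after centring, and to Csf1r, with -0.976 pooled and -0.97 after centring. In Rragc+/+ replicate 2, the library that stood apart, Hmox1 and Csf1r were at their highest and Ncoa4 at its lowest. Without it the r of Ncoa4 after centring was -0.592 with Hmox1 and -0.953 with Csf1r (n = 8). Over all 9 libraries the pooled r of Ncoa4 with the secondary granule genes ran in both directions. It was -0.906 for Ltb4r1, -0.831 for Cybb, -0.612 for Mmp25, -0.329 for Lcn2, -0.149 for Ngp and -0.0204 for Ltf. For Chil3 it was 0.276 and for Camp 0.871. Red cell markers other than the globins were mixed too. Their pooled r with Ncoa4 ran from 0.885 for Bnip3l and 0.722 for Car2 down to -0.499 for Epb41 and -0.716 for Nfe2.

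**Figure D2:**
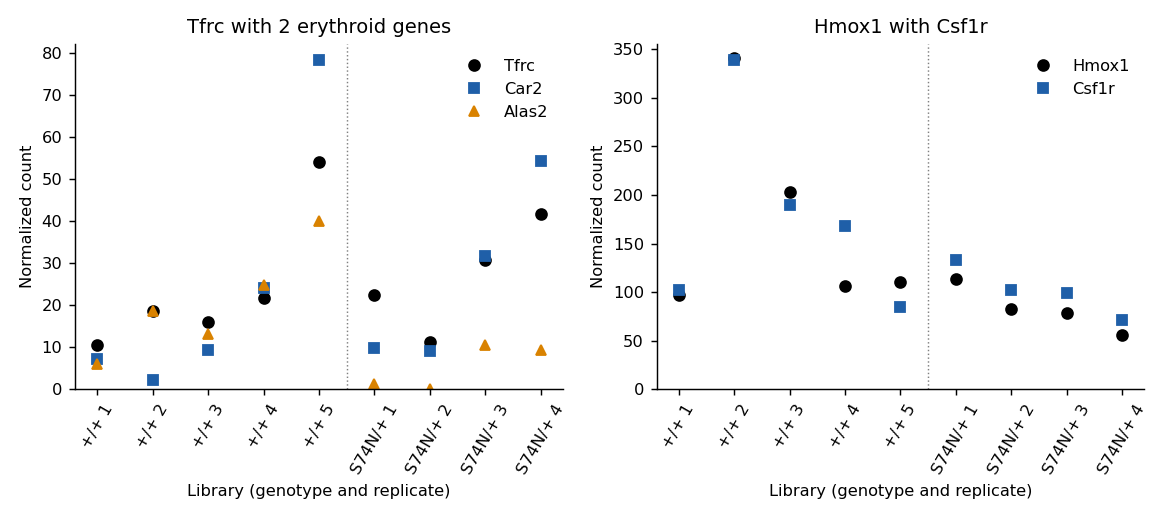
Normalized counts per library of Tfrc with the red cell genes Car2 and Alas2 (left) and of Hmox1 with the macrophage marker Csf1r (right), with the 5 Rragc+/+ libraries left of the dotted line and the 4 RragcS74N/+ libraries right of it. Tfrc and Car2 are both highest in Rragc+/+ replicate 5 and RragcS74N/+ replicate 4, and Hmox1 and Csf1r are both highest in Rragc+/+ replicates 2 and 3.

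The haemoglobin level was used to separate members read from neutrophils from those that move with red cell transcripts. It is the mean of log2(value + 1) over the 4 listed globin genes, and its values were 7.91, 9.30, 8.99, 9.79 and 10.26 in Rragc+/+ replicates 1 to 5 and 7.28, 6.19, 8.10 and 8.88 in RragcS74N/+ replicates 1 to 4. The copies Hba-a1 and Hba-a2 share nearly all of their sequence, so the split of reads between them is uncertain. The level, averaged gene by gene, depends on that split, and the sum of the globins, used as an alternative, does not. The means were 9.25 ± 0.893 (SD, n = 5) and 7.61 ± 1.15 (SD, n = 4), and the difference of -1.64 had p = 0.0556 (two-sided exact permutation test over 126 splits, smallest possible p = 0.00794). With the globins summed before the logarithm the difference was -1.59 (exact permutation p = 0.0476), with the columns rescaled to 1 total it was -1.65 (exact permutation p = 0.0476), and without Rragc+/+ replicate 1 it was -1.97 (exact permutation p = 0.0286). Removal of any other library left p between 0.0536 and 0.125, and without RragcS74N/+ replicate 2 the difference was -1.17. The groups overlapped, since Rragc+/+ replicate 1 lay below RragcS74N/+ replicates 3 and 4.

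No member passed the rule for tracking haemoglobin, a positive slope with an adjusted p-value under 0.05 in a limma fit with genotype as a covariate, and neither did any of the 6669 genes tested (0%). At an unadjusted p-value under 0.05, 3 of 9 members had a positive slope (Tfrc, Fech, Slc25a37) against 1.84% of all genes, and 1 of 9 had a negative slope (Slc11a1) against 0.975%. The slope of Tfrc kept an unadjusted p under 0.05 in 15 of the 15 alternatives that tested it and that of Fech in 14 of 15, whereas Slc25a37 and Slc11a1 each kept it in 7 of 16. Without Rragc+/+ replicate 1, Tfrc alone had a positive slope at that level, and no member had a negative one. The median slope was 0.02 over the members and -0.0056 over all genes. Alas2, the red cell enzyme that starts haem synthesis and carries the hairpin shown above, marks the scale of these values. It measured 5.93, 18.7, 13.1, 24.9 and 40.1 normalized counts in Rragc+/+ and 1.33, 0, 10.5 and 9.41 in RragcS74N/+, and its slope was 1.26 log2 units per log2 unit of haemoglobin (SE 0.19, unadjusted p = 2.28e-05, adjusted p = 0.152 in limma). Its Pearson r with the haemoglobin level, 0.973 (exact permutation p = 1.1e-05), was the highest of all genes tested.

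**Figure D3:**
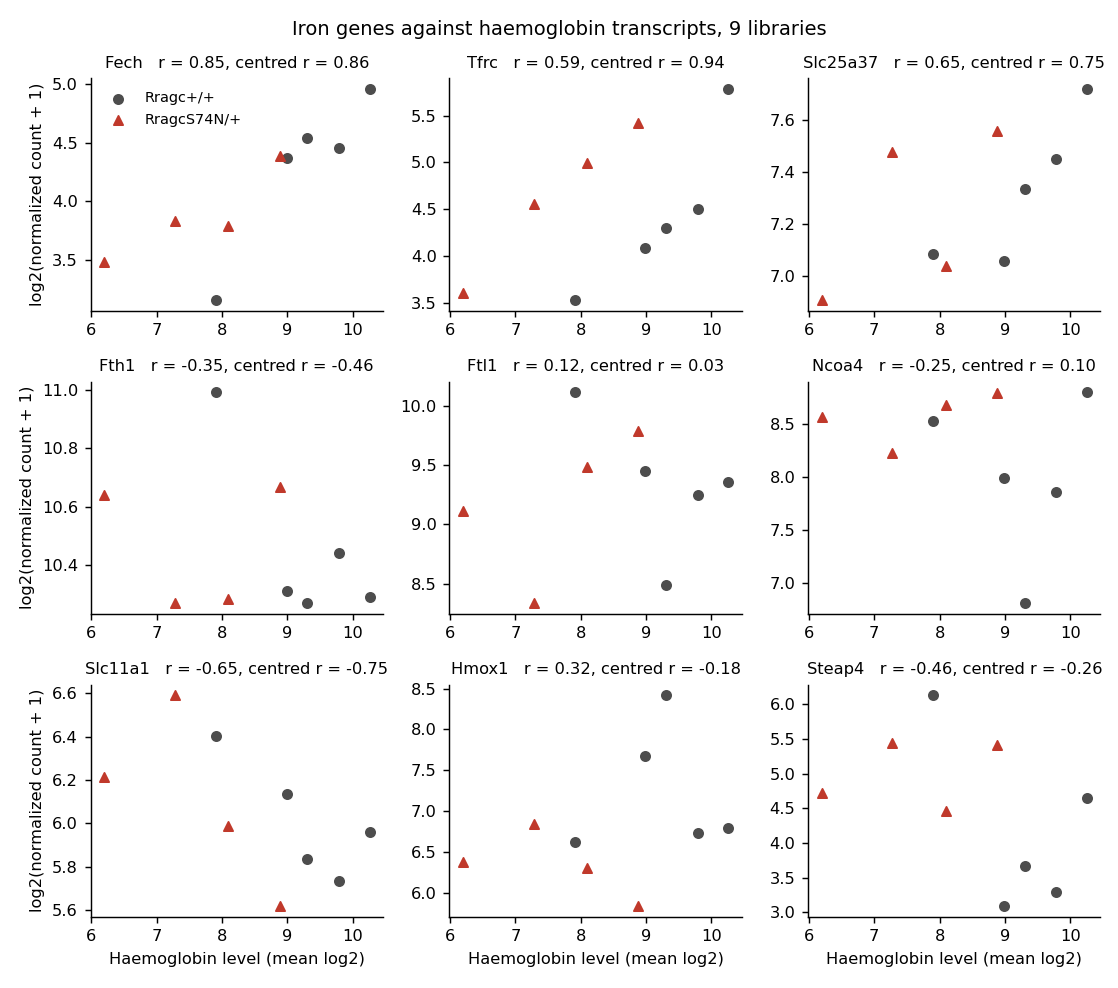
Level of each iron gene, log2(normalized count + 1), against the haemoglobin level (mean log2(value + 1) of 4 globin genes) in 5 Rragc+/+ libraries (grey circles) and 4 RragcS74N/+ libraries (red triangles), with Pearson r before and after centring within genotype. Fech rises along 1 band for both genotypes, and Tfrc rises along 2 bands with RragcS74N/+ above Rragc+/+.

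Fech was the member whose level followed haemoglobin transcripts in the pooled libraries and within the genotypes. Its Pearson r was 0.847 (exact permutation p = 0.00392) and its Spearman rho 0.883 (exact permutation p = 0.00308) over 9 libraries. After centring within genotype r was 0.861, and without the 2 libraries farthest from the median, RragcS74N/+ replicates 1 and 2, it was 0.917 (n = 7). It was the only member with r of at least 0.7 both pooled and centred, as 0.615% of all genes had, and the only one with such an r pooled, as 1.5% had. The limma slope was 0.48 log2 units per log2 unit (SE 0.15, unadjusted p = 0.00612, adjusted p = 0.997), and without Rragc+/+ replicate 1 it was 0.31 with an unadjusted p of 0.0717. The log2 difference between genotypes, -0.42, turned to 0.37 with the haemoglobin level as a covariate, and neither passed the test. Slc4a1, the anion exchanger of the red cell membrane, had an r of 0.858 with Fech, and Hbb-bt had an r of 0.905. The other red cell markers ran from 0.901 for Epb41 down to 0.207 for Nfe2, 0.135 for Isg20 and -0.174 for Bnip3l. Of the genes of dividing cells, Mki67 had an r of 0.816 with Fech (0.805 after centring), Stmn1 0.48 and Top2a 0.399. Of 30 other red cell markers 14 were listed, with a summed level of 859 to 1273 normalized counts in Rragc+/+ and 849 to 1056 in RragcS74N/+. This sum leans on Bnip3l, the highest of the 14, at 237 to 475 in Rragc+/+ and 408 to 491 in RragcS74N/+. Alas2, at 0 to 40.1, and Slc4a1, at 0.66 to 24.1 normalized counts, add little to it, so it does not show how those genes varied. The part of red cell RNA in the Fech values was not tested.

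Tfrc followed haemoglobin within each genotype but less so across them. Ordered by haemoglobin level, the Rragc+/+ libraries gave 10.5, 15.9, 18.7, 21.7 and 54.1 normalized counts and the RragcS74N/+ libraries 11.2, 22.5, 30.9 and 41.8, so the order of Tfrc was that of haemoglobin in both groups. The pooled r was 0.589 (exact permutation p = 0.0958), with a rho of 0.45 (exact permutation p = 0.230), and the centred r was 0.935. Its slope of 0.75 log2 units per log2 unit (SE 0.14) had an unadjusted limma p of 0.00012 and an adjusted p of 0.201. With the haemoglobin level held in the fit, the genotype difference in Tfrc was 1.43 log2 units (SE 0.33, unadjusted p = 0.000925, adjusted p = 0.760), higher in RragcS74N/+, against 0.20 without it.

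Tfrc, which is known to be raised in proliferating cells, also moved with genes of dividing cells. Over the 9 libraries its r was 0.74 with Mki67 and 0.762 with Top2a, both markers of the cell cycle, 0.815 with Car2, a carbonic anhydrase of red cell precursors, and -0.887 with Cxcr2, the chemokine receptor of mature neutrophils. After centring within genotype these were 0.81, 0.757, 0.811 and -0.885. Without Rragc+/+ replicate 2 (n = 8) the pooled r was 0.953 with Mki67, 0.779 with Top2a, 0.94 with Car2 and -0.895 with Cxcr2. The centred r with Mki67 was then 0.976. Over the 9 libraries Car2 had the highest pooled r with Tfrc of the red cell markers. The others ran from 0.764 for Tmcc2 and 0.756 for Slc4a1 down to 0.3 for Ube2o, 0.0243 for Isg20 and -0.105 for Nfe2. Stmn1, also a gene of dividing cells, had 0.544. The mature neutrophil list as a whole was split, with a positive r for 6 of its 11 genes (Ly6g the highest, 0.594) and a negative one for 5. Rragc+/+ replicate 5 held the highest Tfrc (54.1), Car2 (78.2), Top2a (260) and Mki67 (89.2) and the lowest Cxcr2 (895 normalized counts). These relations share libraries and depth, and whether the Tfrc reads came from red cell precursors or from dividing neutrophil precursors was not tested.

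Slc25a37 had a shallow slope on haemoglobin. Its pooled r was 0.651 (exact permutation p = 0.0582), the rho was 0.533 (exact permutation p = 0.148), the centred r was 0.747, and r was 0.801 without the 2 farthest libraries. The slope was 0.22 log2 units per log2 unit (SE 0.10, unadjusted p = 0.0455, adjusted p = 0.997 in limma). In RragcS74N/+ replicate 2, where Alas2 had no read and globins were at their lowest, Slc25a37 still had 117 reads, against 10 for Fech and 11 for Tfrc. A straight line of normalized counts on the globin sum left 81.3% of the mean of Slc25a37 at a globin sum of 0 (SE 8.61), against 49.7% for Fech (SE 9.13) and 50.5% for Tfrc (SE 27.8), each an extrapolation below the lowest library.

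The storage and turnover genes did not follow haemoglobin detectably. The pooled r was -0.346 for Fth1 (exact permutation p = 0.36), 0.119 for Ftl1 (exact permutation p = 0.76), -0.251 for Ncoa4 (exact permutation p = 0.513) and 0.316 for Hmox1 (exact permutation p = 0.411), and the value left at a globin sum of 0 was 110% of the mean for Fth1 (SE 11.1), 103% for Ftl1 (SE 23.1), 104% for Ncoa4 (SE 21.4) and 79.2% for Hmox1 (SE 40.6). Slc11a1 had an r of -0.645 (exact permutation p = 0.0608), a rho of -0.7 (exact permutation p = 0.0433) and a slope of -0.25 (SE 0.11, unadjusted p = 0.0410, adjusted p = 0.997 in limma), lower where haemoglobin was higher. Steap4 had an r of -0.464 (exact permutation p = 0.209). These 9 member relations were computed as 1 family, and no p was adjusted over them alone.

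**Figure D4:**
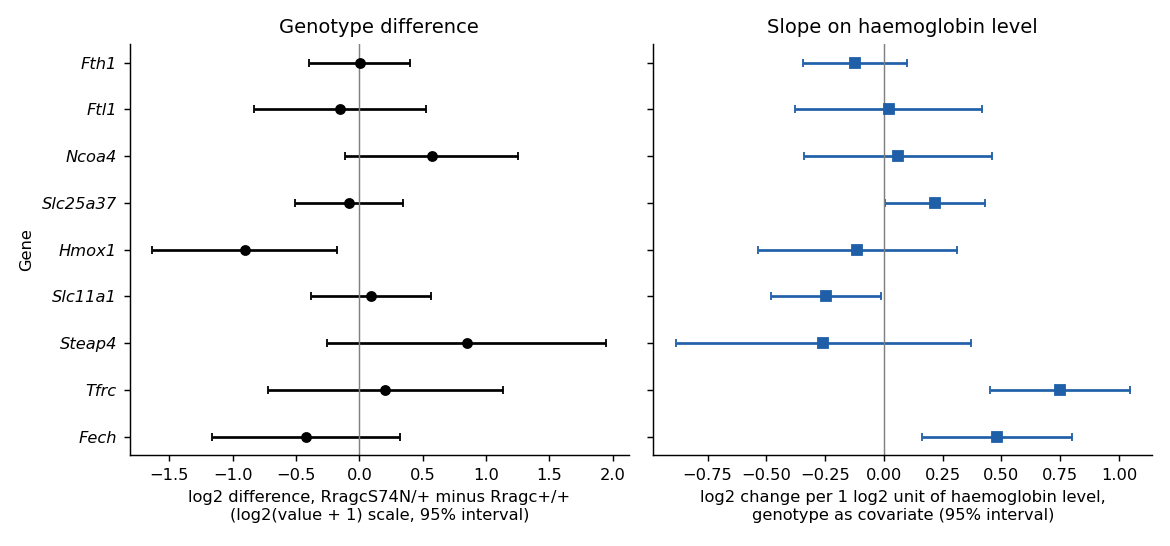
Log2 difference between genotypes, RragcS74N/+ minus Rragc+/+ (left), and slope on the haemoglobin level with genotype as covariate (right) for the 9 listed iron genes, with 95% intervals from limma. The interval of the genotype difference leaves out 0 for Hmox1 alone, at -0.91, and that of the slope leaves out 0 for Tfrc, Fech, Slc25a37 and Slc11a1, none of which passed correction over all genes.

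The members differed in how much they varied between libraries. The coefficient of variation over 9 libraries was lowest for Fth1 (19.3%), Slc25a37 (19.5%) and Slc11a1 (22.9%), which lay below the middle of genes with a mean within 2-fold of their own. It was 71.6% for Steap4, 66.9% for Hmox1 and 57.8% for Tfrc, above that of 98.2%, 98.9% and 94.9% of such genes. Read counting alone would give 23.2% for Steap4, 9.29% for Hmox1 and 21.3% for Tfrc, so their spread exceeded counting error. For Fech, counting alone would give 24% where 40% was observed.

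The members' closest companions differed by gene. By Pearson r after centring within genotype, and for genes averaging 50 or more, the 2 genes most like Tfrc were the globins Hbb-bs (0.975) and Hbb-bt (0.961), and those most like Fech were Nap1l1 (0.926) and Hbb-bt (0.907). No globin was among the 2 nearest genes of the other members. Those were Maf1 (0.925) and Rbbp4 (0.922) for Fth1, Card19 (0.979) and Rnf34 (0.97) for Ftl1, H2ac24 (0.985) and Golga7 (0.984) for Ncoa4, Sgk3 (0.947) and Rap1b (0.922) for Slc25a37, Tab2 (0.953) and Prkaa1 (0.948) for Slc11a1, Riok1 (0.982) and Ubb (0.975) for Hmox1, and Peli1 (0.932) and Slc28a2 (0.924) for Steap4. With 9 libraries and 7197 genes listed, such r values are a description. The genes most like the haemoglobin level itself, after Alas2, were Creb3 (r = 0.915), Cdkn2aipnl (0.887), Mis12 (0.885) and Mcm7 (0.872).

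Among the members themselves, the centred r was 0.825 between Tfrc and Fech, 0.809 between Tfrc and Slc25a37 and 0.717 between Fech and Slc25a37. Fth1 and Ftl1 had 0.681, Ftl1 and Ncoa4 had 0.756, and Ftl1 and Hmox1 had -0.788, and without Rragc+/+ replicate 2 the last 2 were 0.585 and -0.643.

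No gene of the wider iron pathway differed between the genotypes after correction. Over 85 other genes in 5 lists, 50 were listed and 46 tested, of which 23 were higher and 23 lower in RragcS74N/+ with a median log2 difference of -0.0024, and 0 passed correction in limma. At an unadjusted p under 0.05, 1 was higher and 3 lower, against the 5.81% of all genes given above. Fbxl5, the iron-sensing ligase subunit that removes an iron regulatory protein, averaged 475 ± 56.15 in Rragc+/+ (SD, n = 5) against 678.5 ± 202.7 in RragcS74N/+ (SD, n = 4), a log2 difference of 0.47 (limma, unadjusted p = 0.0388, adjusted p = 0.713). Alas2 had a log2 difference of -2.16 (SE 0.70, unadjusted p = 0.00788, adjusted p = 0.713), which was -0.10 with the haemoglobin level as a covariate. Keap1, which restrains the oxidative stress factor that drives Hmox1, averaged 54.9 in Rragc+/+ and 38.3 in RragcS74N/+ (log2 -0.55, unadjusted p = 0.0270 and adjusted p = 0.713 in limma), and Isca1, an iron-sulphur cluster assembly protein, averaged 17.6 and 8.12 (log2 -0.95, unadjusted p = 0.0325 and adjusted p = 0.713 in limma, and log2 -0.25 with the haemoglobin level as a covariate).

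By role, 1 of 5 haem synthesis genes tested (Alas2), 0 of 5 of haem breakdown and transport, 0 of 12 of iron uptake and release, 2 of 11 regulators (Fbxl5, Keap1) and 1 of 13 of iron-sulphur cluster assembly (Isca1) had an unadjusted limma p under 0.05. The share over all genes was 5.81%, and counts this small do not set 1 role apart from another. Slc40a1, the iron exporter ferroportin, had a mean of 407 ± 25.0 in Rragc+/+ (SD, n = 5) against 373.5 ± 57.0 in RragcS74N/+ (SD, n = 4) normalized counts, with a log2 difference of -0.13. Of the granule proteins that withhold iron, Lcn2 averaged 4619 and 4105 normalized counts and Ltf 2968 and 2674 in the 2 genotypes. Against haemoglobin, 0 of the 46 genes passed correction, and at an unadjusted limma p under 0.05 genes with a positive slope included Alas2 and Glrx5 (slope 0.51), and Zfp36l1 had a negative one (-0.43).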

How the data were processed

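RNA of sorted bone marrow neutrophils was made into stranded 3′-end libraries (QuantSeq FWD, random second-strand primers with molecular identifiers). Per the study's methods and the submitters' processing notes, the authors used TopHat2 2.0.10 against GRCm39, keeping reads with several alignments, and HTSeq 0.6.1 for strand-specific gene counts. The deposited values are a signal, gene read counts that the authors divided by 1 size factor per library. Collapsing by molecular identifier and the filter on listed genes are not given in the sources used here. All values were whole multiples of 1 read (100%, tolerance 0.01 read), which gave the recovered reads. Listed-gene totals, 1214295 to 1973957 reads, set the precision, and scarce genes rest on about 10 reads.

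Groups came from the genotype labels. Values were tested as log2(value + 1), which understates changes of low genes, with limma 3.58.1 (R 4.3.3), trended moderation, genes averaging 10 or more and Benjamini-Hochberg adjustment over all genes at 0.05. A fit with genotype and haemoglobin level left the globins out. Single values were tested by two-sided exact permutation. edgeR 4.0.16 and DESeq2 1.42.0 were run on recovered reads and called 0 genes after adjustment and 460 and 447 at an unadjusted p under 0.05. Other alternatives were the pseudocount, filter, scaling, moderation, array weights, the haemoglobin measure and removal of each library. Removal of each library's trend on 3′-end GC content (7067 of 7197 genes matched) and removal of Rragc+/+ replicate 2 from correlations were chosen after seeing the data.

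The members and lists were chosen with earlier results of these data known. Named beyond members were pathway genes with an unadjusted p under 0.05, list-defining genes, each member's 2 nearest genes, the 5 genes nearest to haemoglobin and ferritin copies, while markers set beside a member were picked after their values were seen. Sequences came from GENCODE M21 on GRCm38, not the authors' assembly. On simulated counts over 6643 genes, 73 of 100 genes changed by a log2 value of 1 were called, and over 6665 genes 47 of 100 slopes of 0.5 and 100 of 100 slopes of 1. Unchanged genes called numbered 10 for genotype and 15 for the slope, and the simulated spread was the typical one for each level. Libraries of 1 genotype differed from each other beyond sampling noise (lowest chi-square 5.47 times its degrees of freedom), so none was a duplicate.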

Additional observations from a re-analysis of the deposited data

Results flagged for a closer look

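In Rragc+/+, Fth1 was high in replicate 1, at 2038 normalized counts against 1233 to 1387 in the other 4 libraries, a gap of 0.766 of the group's range. The mean Spearman correlation with the other libraries was low in Rragc+/+ replicate 2, at 0.891, a gap of 0.829 of the range in that group. Of 24 groups of values examined, 2 had such a sample, where chance gives about 1.2. Without Rragc+/+ replicate 1 the log2 difference between genotypes in Fth1 was 0.14 and did not pass the test. The same removal took the members with an unadjusted genotype p under 0.05 from 1 to 3, and all such genes from 388 to 641. It also took the haemoglobin difference past the threshold (exact permutation p = 0.0286) and the Fech slope to an unadjusted p of 0.0717 in limma, while 0 members passed correction.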

How the results depend on the processing

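No member passed correction over all genes for genotype or for haemoglobin under any alternative run. Of 177 member values for genotype under 20 alternatives 156 kept their direction and 21 reversed, 13 of them on removal of 1 library, and of 141 slopes under 16 alternatives 131 kept theirs and 10 reversed, 7 of them on removal of 1 library. With the haemoglobin level as a covariate the genotype difference became -0.20 for Fth1, -0.31 for Slc11a1, 0.27 for Slc25a37 and 0.37 for Fech. Fth1, near 0, was also -0.0052 with rescaled columns, -0.017 in edgeR and -0.0090 in DESeq2, and Ftl1 was 0.18 with the GC trend removed. With no genotype term the haemoglobin slope was -0.13 for Ncoa4 and 0.19 for Hmox1, and with rescaled columns it was -0.0016 for Ftl1. The haemoglobin difference was -1.59 with summed globins and -1.65 with rescaled columns, both past the threshold, and the number of members with r of at least 0.7 went from 1 to 2, Slc25a37 joining Fech, without the 2 farthest libraries. In each of these the cause was not tested.

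Across the fits that left out 1 library each, the genotype difference ranged from -0.064 to 0.14 for Fth1, -0.36 to 0.13 for Ftl1, -0.054 to 0.55 for Tfrc, -0.074 to 0.25 for Slc11a1, -0.19 to 0.029 for Slc25a37, -1.07 to -0.61 for Hmox1, 0.27 to 0.77 for Ncoa4, 0.58 to 1.34 for Steap4 and -0.71 to -0.26 for Fech. The slope ranged from -0.25 to 0.0015 for Fth1, -0.18 to 0.30 for Ftl1, -0.38 to 0.0077 for Hmox1, -0.10 to 0.27 for Ncoa4, -0.53 to 0.30 for Steap4, 0.62 to 0.81 for Tfrc, 0.31 to 0.61 for Fech, 0.18 to 0.25 for Slc25a37 and -0.35 to -0.19 for Slc11a1. With rescaled columns or the other red cell genes in place of globins, neither of the last 2 kept an unadjusted p under 0.05. The haemoglobin difference ranged from -2.06 without RragcS74N/+ replicate 4 to -1.17 without RragcS74N/+ replicate 2 (exact permutation p from 0.0286 to 0.125). The adjusted limma p of the Tfrc slope ranged from 0.0912, with the other red cell genes in place of globins, to 0.9998. Genes with an unadjusted genotype p under 0.05 numbered 388 as reported, 191 with a mean of at least 50, 258 with the GC trend removed, 769 with array weights, 641 without Rragc+/+ replicate 1 and 201, without Rragc+/+ replicate 2, to 907, without Rragc+/+ replicate 5, over the removals of 1 library. No paired analysis was possible because replicates carry no number in the labels. Tfrc, Fech and Steap4 rest on as few as 8 to 11 reads in a library, which limits what can be detected in them.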
